A study of Mus musculus with 7 samples.

Results

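A set of 9 names was looked up among the 640 mature miRNAs counted on Ago2 from mouse plasma, and all 9 were found. They are miR-21a-5p, miR-142a-5p, miR-142a-3p, miR-146a-5p, miR-146b-5p, miR-155-5p, miR-150-5p, miR-223-3p and miR-342-3p, which are studied in inflammation and in white blood cells. The rule behind the set lists names and holds no threshold on a value. Each of the 7 libraries came from a plasma pool of 10 adult male mice of the C57BL/6JOlaHsd strain (c57 in the labels). Control mice had received PBS into the amygdala, with a pool for each of 4 h, 8 h and 24 h. The other mice had received kainic acid into the amygdala to start status epilepticus (SE), a prolonged seizure, with a pool for each of those times and another for 2 weeks. Midazolam or lorazepam was given after the kainic acid, a treatment that the methods describe for SE mice. The SE pool of 2 weeks was set against the 24 h control because its own control library did not pass quality control, so the 24 h control serves in both later comparisons. Every condition rests on a single library, so these libraries hold no replicate of any condition, and the tests below compare pairs of libraries and not conditions.

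Argonaute 2 (Ago2) is the protein that holds a mature miRNA and guides it to target mRNAs, mainly through the seed, bases 2 to 8 of the miRNA. Part of the miRNA in plasma is carried on Ago2 outside vesicles. Blood cells, platelets, endothelium and organs all release miRNA into plasma. Of the miRNAs described here, miR-142a is made almost only in cells of the blood lineage, and miR-223 mainly in neutrophils and other myeloid cells and in platelets. MiR-150 and miR-342 are found in lymphocytes, which does not give the source of their level in plasma. MiR-146a and miR-146b are induced by NF-κB and dampen Toll-like receptor signalling, miR-155 is induced in activated macrophages and lymphocytes, and miR-21 is widely expressed and increases in many inflamed tissues. In a plasma pool, release from more cells and more release per cell cannot be told apart.

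The mature sequences of 8 of the 9 miRNAs were matched by name in RefSeq (GRCm38.p6). They are shown 5′ to 3′ with the seed in capitals, since the seeds show which miRNAs can share targets and the remaining bases show which can share reads.
miR-21a-5p: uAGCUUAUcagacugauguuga
miR-142a-5p: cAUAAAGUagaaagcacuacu
miR-142a-3p: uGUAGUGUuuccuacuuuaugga
miR-146a-5p: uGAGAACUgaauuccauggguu
miR-146b-5p: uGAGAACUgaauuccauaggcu
miR-155-5p: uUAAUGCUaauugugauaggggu
miR-223-3p: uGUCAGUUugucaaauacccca
miR-342-3p: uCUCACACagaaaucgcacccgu

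Only miR-146a-5p and miR-146b-5p had a seed in common among these 8, GAGAACU. The pair differed by 2 substitutions over 22 bases, G18A and U21C, with miR-146a-5p first and positions counted from the 5′ end. The authors' alignment allowed 2 mismatched nucleotides, so reads of these 2 miRNAs may have been exchanged, and their separate counts are uncertain. The seed of miR-21a-5p was shared with miR-21c. Over the first 20 bases miR-21b differed from miR-21a-5p by 2 substitutions, C4U and G18A, and miR-21c by 4. Allowing ends to be left out, the other counted miRNAs with 3 or fewer mismatches to one of the 8 over at least 18 bases were miR-3965 for miR-21a-5p and miR-3964 and miR-3969 for miR-142a-5p. In any library miR-21b had at most 8 counts, and miR-21c and the other 3 at most 3.

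The hairpins lie at separate loci of GRCm38 apart from the arms of miR-142a. Mir21a (chr11:86584067-86584158, minus strand) overlapped an annotated exon of Vmp1 on the same strand. Mir142 (chr11:87756864-87756927, plus strand) was intronic in the long non-coding Mir142hg, with Mir142b on the opposite strand, and miR-142a-5p and miR-142a-3p are the opposite arms of this hairpin. The miR-146a hairpin, Mir146 (chr11:43374397-43374461, minus strand), and Mir150 (chr7:45121757-45121821, plus strand) overlapped no other annotated gene. Mir146b (chr19:46342762-46342870, plus strand) was intronic in Mfsd13a and Mir342 (chr12:108658620-108658718, plus strand) in Evl. Mir155 (chr16:84714140-84714204, plus strand) was exonic in Mir155hg, and Mir223 (chrX:96242817-96242926, plus strand) in F630028O10Rik.

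Total counts were 2043220, 3529563 and 3412752 in the control libraries of 4 h, 8 h and 24 h. They were 5405357, 3166964, 3718313 and 2541062 in the SE libraries, from the earliest to the 2-week pool, and values below keep this order of times. The control library of 4 h was thus the shallowest and the SE library of 4 h the deepest. Red cell miR-486b-5p took 76.1%, 67.5% and 67.0% of the counts in the controls in the same order and 67.5%, 62.5%, 76.1% and 63.2% in SE. It was highest in the 4 h control and the 24 h SE library, and this affects every share of the remaining miRNAs. Levels are given below as CPM (counts scaled to the size of the library) on library sizes scaled by the trimmed mean of M-values (TMM).

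The libraries also differed at the low end of their counts. In each library, small counts clustered near a value of its own, which was 102 in the 4 h control, 60.2 in the 8 h control and 55.1 in the 24 h control. It was 37.6, 51.9, 45.1 and 33.1 in the SE libraries. Counts of the rarer miRNAs are set beside this value below. Counting intervals cover counting error only, since reads without molecular identifiers are not independent molecules.

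Together the 9 miRNAs took 1.09%, 1.85% and 2.82% of the counts in the control libraries of 4 h, 8 h and 24 h. They took 1.46%, 1.77%, 1.65% and 2.81% in the SE libraries. The shares were lowest in the 4 h control and highest in the 24 h control, so by this share the SE libraries lay between control libraries. With miR-486b-5p left out of the total, the shares were 4.57%, 5.69% and 8.56% in controls and 4.48%, 4.74%, 6.88% and 7.65% in SE, so SE at 4 h then lay just below every control. Of the summed level, miR-21a-5p and miR-142a-5p held the most in each library.

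**Figure D1:**
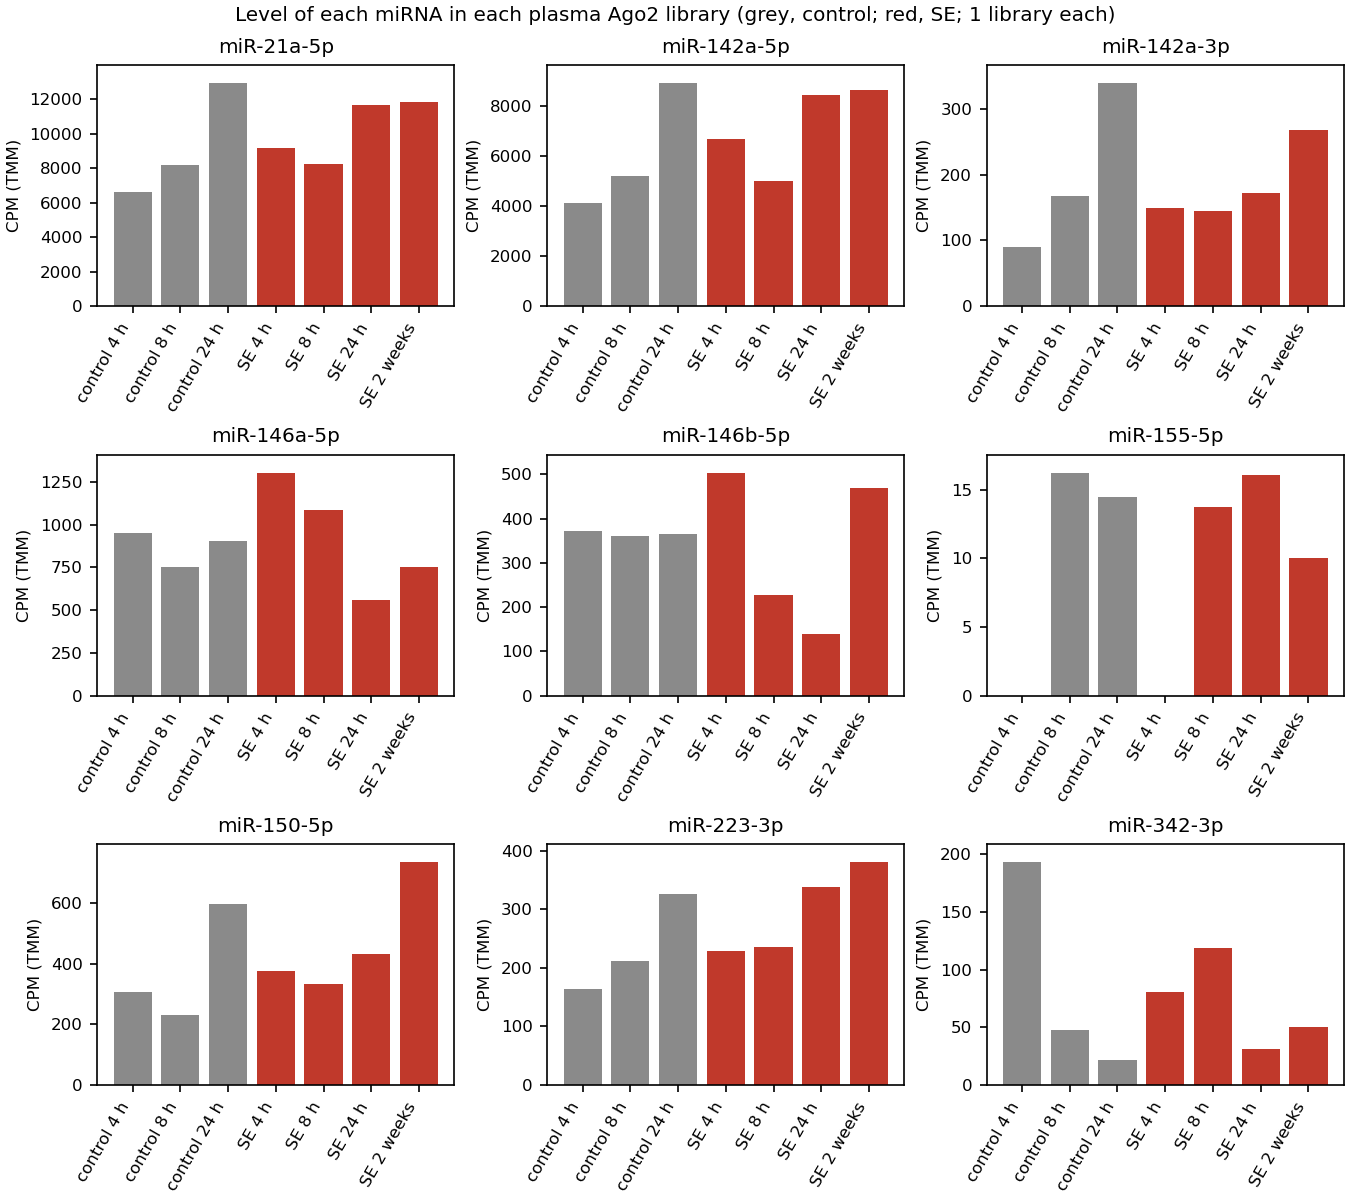
CPM on TMM-scaled library sizes (y axis, from 0 and on its own scale in each panel) of the 9 miRNAs in the 3 control libraries (grey) and the 4 SE libraries (red), with 1 library per bar and no error bars. miR-146b-5p lay between 360 and 371 CPM in the controls and between 139 and 504 CPM in SE on this scale, while on plain totals its controls ran from 317 to 439 CPM with SE at 4 h among them.

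miR-21a-5p was the most abundant of the 9, at rank 11 of the 640 by mean level. Its level was 6618, 8194 and 12939 CPM in the controls of 4 h, 8 h and 24 h and 9160, 8263, 11691 and 11836 CPM in SE. The 24 h control was the highest library and the 4 h control the lowest, and all 4 SE libraries lay within the range of the controls. In the order of the 7 levels, no neighbours differed by more than the SD of the log2 level over the controls, 0.49. In the 4 h control miR-21a-5p took 0.564% of the counts (95% Wilson interval 0.554% to 0.575%), and in the 4 h SE library 0.722% (0.714% to 0.729%).

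miR-142a-5p, a blood-lineage miRNA, followed at rank 17. Its level was 4127, 5182 and 8911 CPM in the controls and 6680, 5010, 8438 and 8635 CPM in SE, in the same order of times. Here too the SE libraries lay within the controls, although on plain library totals that of 2 weeks, at 10490 CPM, lay just above the highest control, at 10304 CPM. The other arm, miR-142a-3p, was far less abundant, at 90.7, 167 and 340 CPM in the controls and 150, 144, 172 and 269 CPM in SE. Its extremes were again the 4 h and 24 h controls, which differed 3.75-fold. The 158 counts behind the level in the 4 h control were 1.54 times the low-count value of that library.

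The lymphocyte miRNA miR-150-5p was measured at 308, 230 and 596 CPM in the controls and at 375, 332, 433 and 735 CPM in SE. Only the 2-week SE library lay above all controls. The myeloid miRNA miR-223-3p was measured at 164, 212 and 326 CPM in the controls and at 229, 235, 337 and 381 CPM in SE. Its SE libraries of 24 h and 2 weeks lay above all controls, the former by little. On plain totals only that of 2 weeks did so, and SE at 24 h, at 254 CPM, was below its own control, at 377 CPM. For both miRNAs, neighbouring levels differed by less than the SD over the controls, 0.70 and 0.50 on the log2 scale.

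miR-146a-5p was measured at 952, 750 and 907 CPM in the controls and at 1305, 1088, 559 and 755 CPM in SE. The SE libraries of 4 h and 8 h lay above all controls and that of 24 h below them. On plain totals the controls were at 812, 916 and 1049 CPM and SE at 4 h, at 1028 CPM, lay within them, with SE at 8 h still above and at 24 h still below. miR-146b-5p was measured at 371, 360 and 366 CPM in the controls and at 504, 227, 139 and 469 CPM in SE. None of its SE libraries lay within the controls, with those of 4 h and 2 weeks above and those of 8 h and 24 h below. On plain totals its controls were at 317, 439 and 423 CPM and SE at 4 h, at 397 CPM, lay within them, while the other SE libraries kept their places. These 2 miRNAs had the narrowest control ranges of the 8 with counts in every library, 1.27-fold for miR-146a-5p and 1.03-fold for miR-146b-5p with TMM and 1.29-fold and 1.39-fold on plain totals. The SD of the log2 level over the controls was 0.18 and 0.023 with TMM and 0.18 and 0.26 on plain totals, so the near-constant level of miR-146b-5p in the controls depended on the scaling. The narrow range of 3 pools does not give the spread between pools of one time-point.

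miR-342-3p had 337, 205 and 87 counts in the controls and 342, 433, 88 and 155 counts in SE. This gave 193, 47.5 and 22.0 CPM in the controls and 80.3, 119, 31.4 and 50.2 CPM in SE. The 4 h control was the highest and the 24 h control the lowest, the reverse of the order for miR-21a-5p and miR-142a-5p, and the controls spanned 8.77-fold. On plain totals the lowest was SE at 24 h, at 23.7 CPM, beside 25.5 CPM in its control. The counts were between 1.58 and 9.10 times the low-count value of their library.

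miR-155-5p had no counts in the 4 h control and in the 4 h SE library. In the controls of 8 h and 24 h it had 70 and 57 counts, and in SE at 8 h, 24 h and 2 weeks 50, 45 and 31 counts. Where it was counted, it lay between 0.936 and 1.16 times the low-count value, and its level was between 10.0 and 16.2 CPM. A count of 0 allows a share of up to 0.000147% in the 4 h control and 5.55e-05% in the 4 h SE library, taking 3 counts as the limit. It did not reach the 50 CPM required for the tests below in any library. With no filter it was not called at 8 h, 24 h or 2 weeks, with log2 changes of -0.24, 0.15 and -0.52 in SE.

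**Figure D2:**
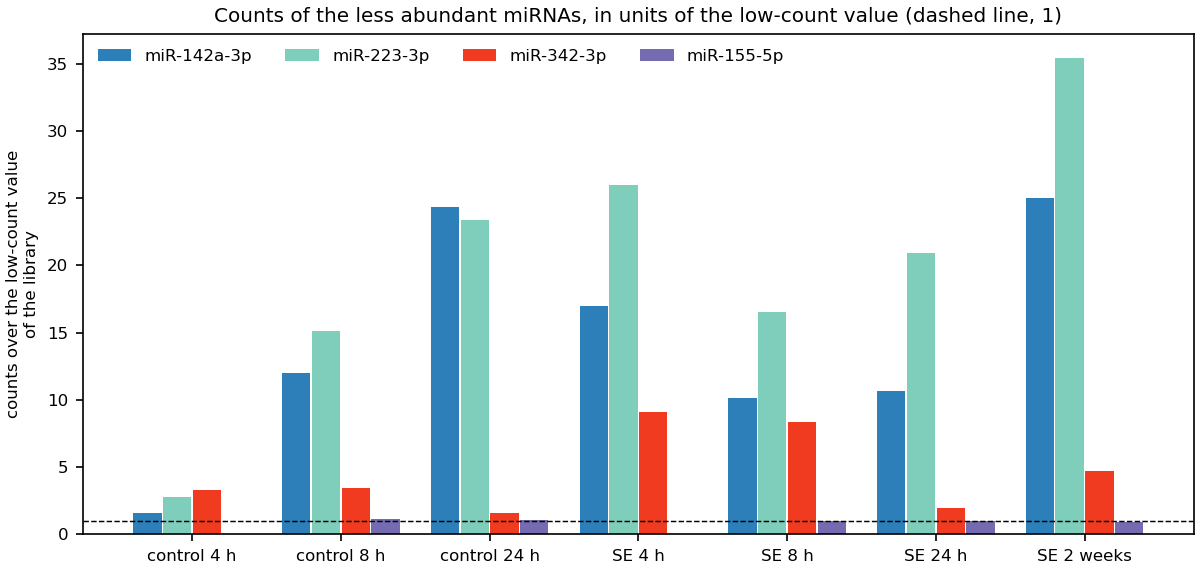
Counts of the 4 least abundant miRNAs over the low-count value of their library (y axis, no unit), for each of the 7 libraries, with the dashed line at 1. miR-155-5p lay at 0 or near 1 in every library, miR-342-3p between 1.58 and 9.10, and in the 4 h control miR-142a-3p lay at 1.54.

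At 4 h, miR-142a-5p and miR-142a-3p were higher in SE and miR-342-3p was lower. The fold changes were 1.62 for miR-142a-5p (log2 0.69, p = 0.000753 by edgeR's exact test), 1.65 for miR-142a-3p (log2 0.72, exact p = 0.00285) and 0.415 for miR-342-3p (log2 -1.27, exact p = 7.11e-08). A miRNA was tested at 50 CPM of the plain total in either library, with the biological coefficient of variation (BCV) fixed at 0.1, and called at an unadjusted p under 0.05 with a change of at least 1.5-fold. Thus 2 of the 8 tested were called higher, where 32.1% of all 165 miRNAs tested were, and 1 was called lower, where 30.9% were. The remaining 5 had log2 changes from 0.29 for miR-150-5p to 0.48 for miR-223-3p. The median over the 8 was 0.46, against 0.060 over all tested. Against the 3 control libraries pooled as 1 group, none of these calls was made: the log2 changes were 0.14 for miR-142a-5p, -0.45 for miR-142a-3p and 0.035 for miR-342-3p. Of all 148 tested in this way, 31.8% were called higher and 18.2% lower. By library size alone or DESeq2's size factors, miR-142a-5p had a log2 change of 0.58 or 0.56 and fell short of 1.5-fold. The 4 h control held the lowest level of both miR-142a arms and the highest of miR-342-3p among all 7 libraries.

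At 8 h, miR-342-3p was 2.50-fold higher in SE (log2 1.32, exact p = 3.44e-08) and miR-146b-5p was lower, at 0.631 of the control level (log2 -0.66, exact p = 0.00197). Against the pooled controls the log2 change of miR-342-3p was 0.60 and that of miR-146b-5p -0.69, both still called. Of all 165 tested in this way, 32.1% were called higher and 20.6% lower. Against the 8 h control alone, 1 of 8 was called higher, beside 34.8% of all 164 tested, and 1 of 8 lower, beside 15.2%. miR-146a-5p had a log2 change of 0.54 and miR-150-5p of 0.53, and both stayed under 1.5-fold. miR-21a-5p, miR-142a-5p, miR-142a-3p and miR-223-3p had log2 changes between -0.22 and 0.15. The median over the 8 was 0.082, and over all tested 0.20. With miR-486b-5p left out before scaling, 277 miRNAs reached the filter and the calls over all of them went from 57 higher and 25 lower to 90 higher and 81 lower (32.5% and 29.2%), with miR-342-3p and miR-146b-5p called as before.

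At 24 h, miR-142a-3p, miR-146a-5p and miR-146b-5p were lower in SE. Their levels were 0.506, 0.617 and 0.379 of the control levels. The log2 change was -0.98 for miR-142a-3p (exact p = 7.50e-06), -0.70 for miR-146a-5p (exact p = 0.000882) and -1.40 for miR-146b-5p (exact p = 3.39e-10). None of the 7 tested was called higher, beside 22.9% of all 144, and 3 were called lower, beside 22.2%. miR-21a-5p, miR-142a-5p and miR-223-3p had log2 changes of -0.15, -0.079 and 0.049, and miR-150-5p of -0.46. miR-342-3p had 87 counts in the control and 88 in SE and was below the 50 CPM needed. The median over the 7 was -0.46, against -0.020 over all tested. Against the pooled controls, where 24.1% of all 145 tested were called lower, miR-146a-5p and miR-146b-5p were called lower (log2 -0.64 and -1.40). There miR-142a-3p was not called (log2 -0.25), and miR-342-3p was called lower (log2 -1.32, exact p = 4.23e-09). This was opposite to its log2 difference of 0.51 from the 24 h control, which was not tested and which turned to -0.11 by library size alone. By that scaling, 6 of the 7 were called lower. It also moved the median of all tested miRNAs to -0.64 and the calls over all of them from 33 higher and 32 lower to 13 higher and 75 lower.

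At 2 weeks, miR-342-3p alone was called, at 2.28-fold the level of the 24 h control (log2 1.19, exact p = 2.84e-05). It was 1 of 8 called higher, beside 19.2% of all 156 tested, and none was called lower, beside 14.1%. Its 155 counts in SE were set against 87 in the control, and with 50 CPM required in both libraries it was not tested. The other log2 changes ran from -0.34 for miR-142a-3p to 0.36 for miR-146b-5p. The median over the 8 was 0.089, and over all tested 0.013. With all 3 controls together as the reference, miR-342-3p was lower (log2 -0.64, exact p = 0.000948), while miR-150-5p and miR-223-3p were called higher, with log2 changes of 0.95 and 0.69. Of all 154 tested in this way, 16.9% were called higher and 21.4% lower.

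Of the calls at the 4 times, 2 were made when counts were first divided by the low-count value of their library, miR-142a-5p at 4 h and miR-146b-5p at 24 h, and none was made with the BCV at 0.4. With divided counts, 31 of all 192 tested were called at 4 h, 26 of 168 at 8 h, 19 of 138 at 24 h and 14 of 153 at 2 weeks. With the BCV at 0.4, the calls over all tested were 40 of 165, 25 of 164, 20 of 144 and 10 of 156. The change in SE itself differed between 4 h and 8 h for 4 of the 8 miRNAs at an adjusted p under 0.05 (edgeR's likelihood ratio test), beside 56.3% of all 197 tested. It differed between 4 h and 24 h for 6 of 8, beside 55.8%, and between 8 h and 24 h for 4 of 8, beside 46.2%.

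The same test was then run between control libraries, in which no mouse had SE. From 4 h to 24 h, 5 of the 8 tested were higher, beside 31.0% of all 171 tested, and miR-342-3p was lower, beside 36.8%. The 5 were miR-21a-5p, miR-142a-5p, miR-142a-3p, miR-150-5p and miR-223-3p, with log2 changes of 0.97, 1.11, 1.91, 0.95 and 0.99. miR-342-3p had a log2 change of -3.13. From 8 h to 24 h the same 5 were higher, with log2 changes between 0.62 for miR-223-3p and 1.37 for miR-150-5p, beside 27.0% of all 152 tested, and miR-342-3p was lower (log2 -1.11), beside 19.1%. From 4 h to 8 h, miR-142a-3p was higher (log2 0.88), beside 18.6% of all 167 tested, and miR-342-3p was lower (log2 -2.02), beside 37.7%. miR-146a-5p and miR-146b-5p were called in none of the 3 pairs, with log2 changes from -0.34 to 0.27. These 3 pairs share libraries with one another and with the SE comparisons.

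**Figure D3:**
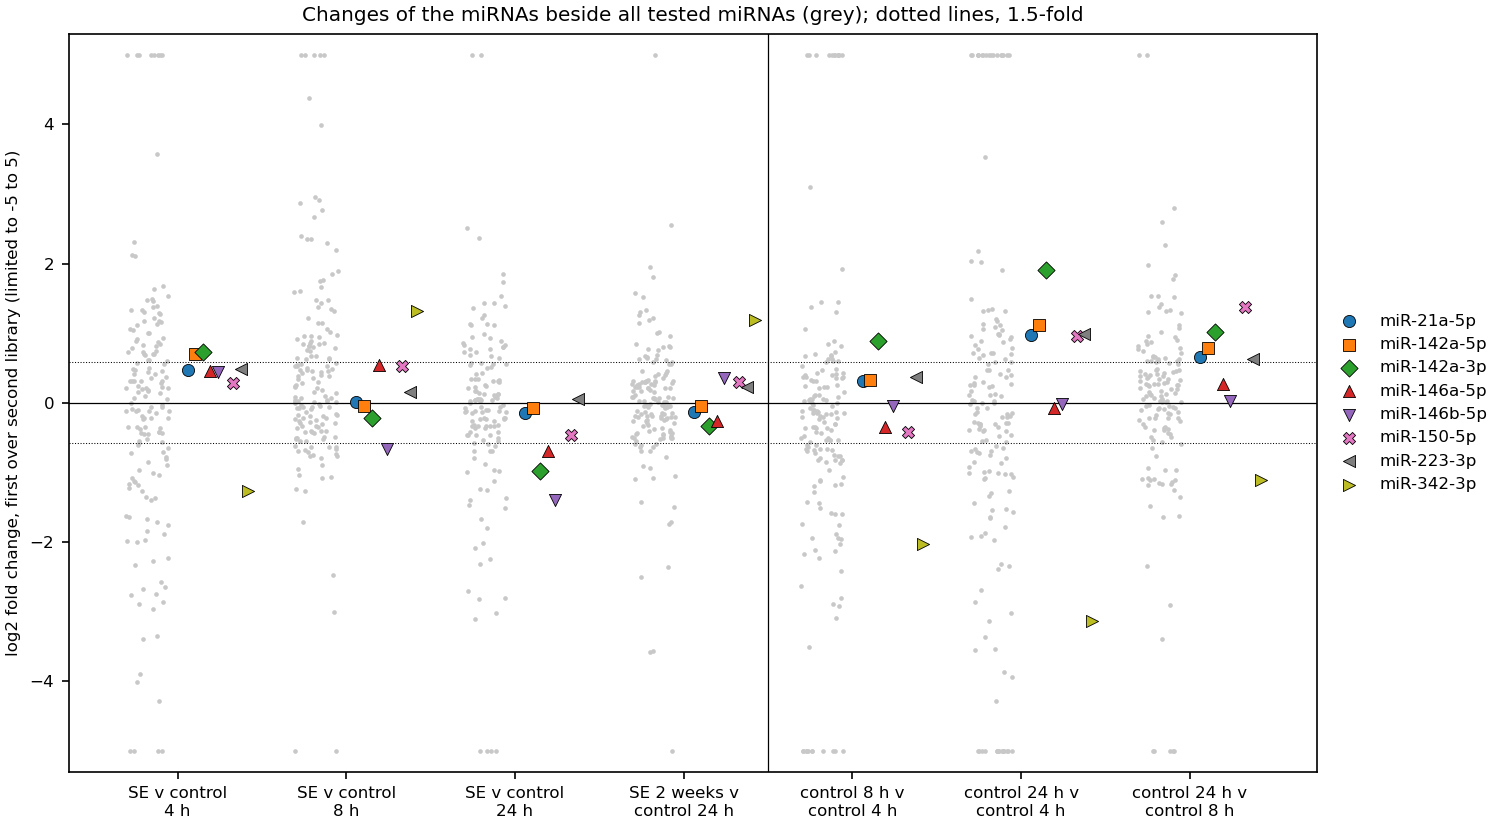
Log2 fold change of the first over the second library named (y axis, limited to -5 to 5) for 8 of the miRNAs (coloured symbols) and all miRNAs tested (grey points) in 4 comparisons of SE with control and, right of the line, 3 of controls with controls. Of the miRNAs, 5 were 1.5-fold or more higher in the 24 h control than in either earlier control, miR-342-3p was lower there, and miR-146a-5p and miR-146b-5p stayed within the dotted lines of 1.5-fold between controls but not at 24 h of SE.

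The acute libraries, 3 of SE and 3 of control, were also set against each other with edgeR's quasi-likelihood test, which estimates the spread from the libraries. Each side mixes 3 time-points, so its libraries do not replicate one another. The estimated BCV was 0.569, against the 0.1 assumed in the exact test. None of the 137 miRNAs tested passed an adjusted p of 0.05, which is 0.00% and includes the 8 described here, and 15 had an unadjusted p under 0.05, none of them among the 8. DESeq2 called 4 of the 137. The log2 difference was -0.39 for miR-142a-3p (95% interval -1.65 to 0.86), -0.37 for miR-146b-5p (-1.47 to 0.73), 0.16 for miR-146a-5p (-0.62 to 0.95) and 0.040 for miR-21a-5p (-0.64 to 0.72). For miR-342-3p it was -0.15 (-2.30 to 2.00). Intervals of this width include changes of 1.5-fold in either direction.

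Ratios within a library do not depend on its scaling. The ratio of miR-146a-5p to miR-146b-5p was 2.56, 2.09 and 2.48 in the controls and 2.59, 4.79, 4.03 and 1.61 in SE. It was highest in SE at 8 h and 24 h and lowest in SE at 2 weeks, outside the range of the controls. With the counts of both summed, because reads may pass between them, the level in SE was lower at 24 h (log2 -0.87, exact p = 3.24e-05). At 4 h, 8 h and 2 weeks the sum had log2 changes of 0.44, 0.24 and -0.057 and was not called. The sum was chosen after the data were seen.

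The ratio of miR-142a-5p to miR-142a-3p was 45.5, 31.0 and 26.2 in the controls and 44.6, 34.8, 49.1 and 32.1 in SE. Only the 24 h SE library lay above the controls, and the library with the lowest ratio was its own control. The other arm of the miR-21a hairpin, miR-21a-3p, was measured at 106, 165 and 243 CPM in the controls and 261, 303, 262 and 333 CPM in SE, so every SE library lay above every control on this scale. On plain library totals it was at 90.5, 201 and 281 CPM in the controls and 205, 349, 197 and 405 CPM in SE, and the groups overlapped. It was called higher in SE at 4 h (log2 1.30, exact p = 3.50e-08) and 8 h (log2 0.88, exact p = 5.01e-05), and at 24 h and 2 weeks its log2 changes were 0.11 and 0.45. Against the pooled controls the change at 4 h was 0.58 and not called, while those at 8 h, 24 h and 2 weeks were 0.80, 0.59 and 0.93 and called higher. No change of miR-21a-3p against its own control was called with the BCV at 0.4 or with counts divided by the low-count value. The ratio of miR-21a-5p to miR-21a-3p was 62.3, 49.8 and 53.2 in the controls and 35.1, 27.3, 44.7 and 35.5 in SE, with no overlap between the groups. This ratio was picked out after its values were seen and was not tested. In the 4 h control it rests on 185 counts of miR-21a-3p, where the low-count value was 102.

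The sequence of this arm shows a different seed from that of miR-21a-5p.
miR-21a-3p: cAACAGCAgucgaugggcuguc

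**Figure D4:**
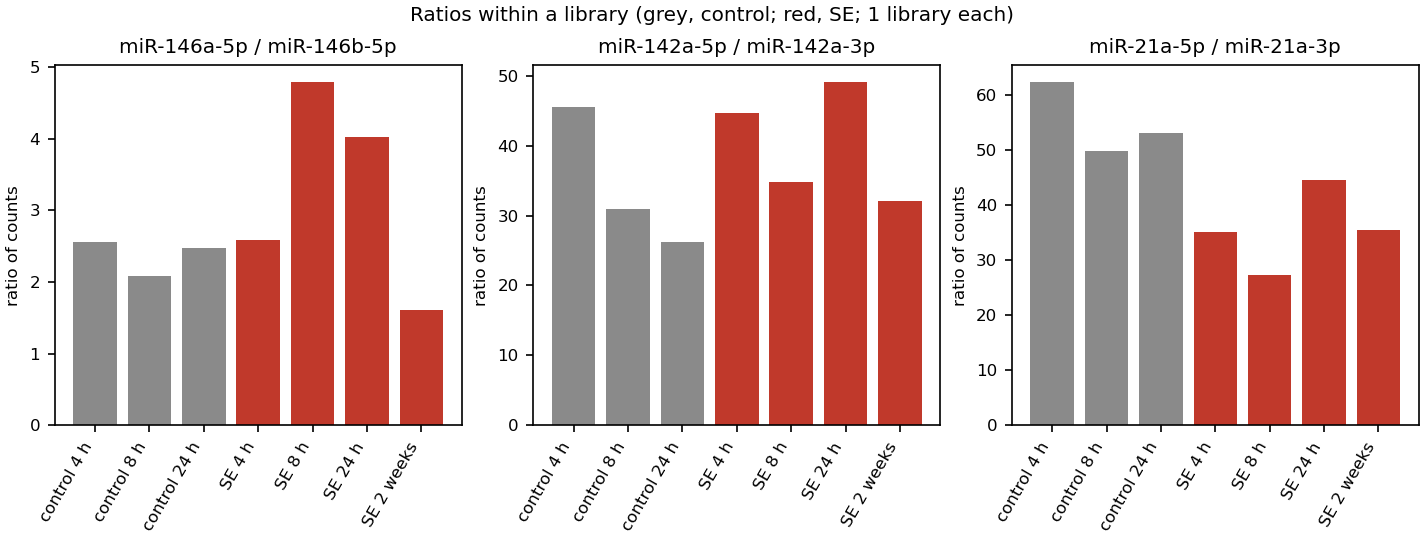
Ratio of counts within each library (y axis, no unit, from 0) for miR-146a-5p over miR-146b-5p and for the 5p over the 3p arm of miR-142a and miR-21a, in controls (grey) and SE (red), with 1 library per bar. The miR-146 ratio reached 4.79 and 4.03 in SE at 8 h and 24 h against 2.09 to 2.56 in controls, and the miR-21a ratio was 49.8 or more in controls and 44.7 or less in SE.

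Other arms of these hairpins mostly had few counts. miR-342-5p, the other arm of the miR-342 hairpin, had 45 and 100 counts in the controls of 4 h and 8 h and 57 in SE at 2 weeks and was listed at 0 in the other 4 libraries. Named only after their values were seen, miR-150-3p had 7 counts in 1 library, and miR-223-5p, the other arm of the miR-223 hairpin, had 1, 298 and 0 counts in the controls and 0, 45, 69 and 63 counts in SE. In the 8 h control it was above miR-342-3p, and at 8 h it was called lower in SE (log2 -2.48, exact p = 3.18e-17), beside 15.2% of all tested. Its 45 counts in SE at 8 h lay below the low-count value of that library, 51.9.

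Across the 7 libraries, the levels of some of these miRNAs moved together. Pearson's r of the log2 level was 0.985 between miR-21a-5p and miR-142a-5p, 0.957 between miR-21a-5p and miR-223-3p, and 0.901 between miR-21a-5p and miR-142a-3p. For miR-342-3p it was -0.881 with miR-21a-5p, -0.85 with miR-142a-3p and -0.489 with miR-150-5p, the other miRNA found in lymphocytes. With miR-146a-5p and miR-146b-5p it was 0.542 and 0.186. For miR-146a-5p and miR-146b-5p it was 0.564 with each other and -0.409 and -0.132 with miR-21a-5p. These are descriptions over 7 pools that share depth and scaling differences. Candidates had to reach 50 CPM in every library. Of these, the most like miR-21a-5p were miR-142a-5p, miR-26a-5p (0.960) and miR-223-3p, and the most like miR-142a-5p were miR-21a-5p, miR-26a-5p (0.966) and miR-223-3p (0.940). For miR-142a-3p they were miR-128-3p (0.944), miR-26a-5p (0.931) and miR-181c-5p (0.908), and for miR-223-3p they were miR-21a-5p, miR-142a-5p and miR-191-5p (0.930). miR-150-5p was most like miR-191-5p (0.903), miR-26a-5p (0.858) and miR-223-3p (0.841). The values were lower for miR-146a-5p, with miR-27b-3p (0.830), miR-378c (0.813) and miR-22-3p (0.806), and for miR-146b-5p, with miR-5112 (0.729), miR-125a-5p (0.650) and miR-423-5p (0.646). For miR-342-3p they were miR-127-3p (0.871), miR-181a-2-3p (0.837) and miR-140-3p (0.795). These ranks changed with the scaling, except for miR-150-5p and miR-223-3p, which kept the same miRNAs in the same order. On plain totals miR-21a-5p was most like miR-142a-3p (0.987) and miR-128-3p (0.983), miR-142a-5p like miR-26a-5p (0.987), miR-146a-5p like miR-22-3p (0.893), miR-146b-5p like miR-423-5p (0.874) and miR-342-3p like miR-181a-2-3p (0.923).

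A wider list of 35 miRNAs studied in lymphocytes or macrophages, none of them among the 9, had 33 counted miRNAs. At 4 h, 8 of its 23 tested miRNAs were higher in SE and 5 lower (34.8% and 21.7%), beside 32.1% and 30.9% of all tested. At 8 h, 9 of 25 were higher and 1 lower (36.0% and 4.00%), beside 34.8% and 15.2%. At 24 h, 1 of 22 was higher and 4 were lower (4.55% and 18.2%), beside 22.9% and 22.2%, and at 2 weeks 4 of 23 were higher and 2 lower (17.4% and 8.70%), beside 19.2% and 14.1%. As for the 9 miRNAs, 24 h was the time-point with the fewest called higher. The median log2 change of the list was 0.21, 0.43, -0.13 and -0.019 at the 4 times, against 0.060, 0.20, -0.020 and 0.013 over all tested. From the 4 h to the 8 h control, 4 of its 24 tested miRNAs were higher and 9 lower, beside 18.6% and 37.7% of all tested. From 4 h to 24 h, 7 of 24 were higher and 4 lower, beside 31.0% and 36.8%, and from 8 h to 24 h 6 of 23 were higher and 0 lower, beside 27.0% and 19.1%.

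Among list members with 50 CPM in both libraries, the largest increase at 4 h was in miR-182-5p, a miRNA induced in activated helper T cells, from 721 to 2243 CPM (log2 1.64). It was again the largest at 24 h, from 657 to 1426 CPM (log2 fold change 1.12), a call not made by library size alone (log2 0.50). The largest decrease at 4 h was in miR-181d-5p, from 351 to 114 CPM (log2 -1.63). At 8 h these places were taken by miR-125b-5p, from 60.3 to 154 CPM (log2 1.35), and let-7i-5p, from 8056 to 5202 CPM (log2 -0.63). At 24 h the largest decrease was in miR-24-3p, from 202 to 125 CPM (log2 -0.69). At 2 weeks the largest were an increase of miR-19b-3p, a member of the miR-17-92 cluster, from 193 to 310 CPM (log2 0.69), and a decrease of miR-130a-3p from 2614 to 1365 CPM (log2 -0.94).

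Markers of other sources were read in the same libraries. Of the 5 red cell miRNAs miR-486b-5p held nearly all, at 891856, 552303 and 579385 CPM in the controls and 857231, 543903, 1008830 and 520595 CPM in SE, with miR-486a-5p listed at 0 in 6 of the 7 libraries. It was called higher in SE at 24 h (log2 0.80), the time-point at which the most of the 9 miRNAs were called lower, but not by library size alone (log2 0.18), where its share of the counts was 67.0% and 76.1%. Of the other red cell miRNAs, miR-144-3p had 0 counts in the 4 h control and 1407 in SE, and miR-144-5p had 1 and 779, and both were called higher at 4 h, when miR-486b-5p had a log2 change of -0.057. miR-144-5p was called lower at 8 h (log2 -0.67) and higher at 24 h (0.80), the latter not by library size alone (0.19), and miR-144-3p lower at 2 weeks (-1.09). By library size alone miR-144-3p was also called lower at 24 h (-0.94). Red cell miR-451a was at 1.47, 11.0 and 23.7 CPM of the plain total in the controls. In SE it was at 8.70, 10.4, 12.1 and 18.1 CPM. It was below the 50 CPM needed and not tested, with a log2 change of -0.97 at 24 h by library size alone. The 2 platelet and endothelial miRNAs, which are the arms of miR-126a, were both called higher at 4 h, beside 32.1% of all tested. The log2 changes were 1.00 for miR-126a-5p and 1.13 for miR-126a-3p. Their summed level was 1207, 1592 and 2275 CPM in the controls and 2432, 1916, 2530 and 1756 CPM in SE, lowest in the 4 h control as for miR-21a-5p. According to the methods, haemolysis was read by absorbance and plasma above a set reading was left out. The part of red cells or platelets in the changes above was not tested.

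Liver miR-122-5p was at 0 in all controls and in SE at 8 h and reached 17.8 CPM at most. Of 5 muscle miRNAs 2 were counted, led by miR-133a-3p. It was called higher in SE at 8 h, 24 h and 2 weeks, beside 34.8%, 22.9% and 19.2% of all tested. The log2 changes of miR-133a-3p were 0.86, 1.25 and 0.62. Its level was 888, 793 and 75.5 CPM in the controls, with the highest of the controls at 4 h like miR-342-3p, and 1104, 1439, 180 and 116 CPM in SE. The summed muscle level was 888, 807 and 100 CPM in the controls and 1119, 1439, 180 and 119 CPM in SE. All 3 neuronal miRNAs were counted, led by miR-128-3p at 1072, 1431 and 2273 CPM in the controls and 1332, 1181, 1768 and 1953 CPM in SE, with no call at any time except, by library size alone, lower at 24 h (log2 -0.98). miR-9-5p was called lower in SE at 4 h (log2 -1.13) and higher at 8 h (log2 1.60), the same directions as miR-342-3p. Of all tested, 30.9% were called lower at 4 h and 34.8% higher at 8 h. It had 122 counts in the control and 136 in SE at 4 h, and 111 and 284 at 8 h. The low-count values of these controls were 102 and 60.2. The sums of the neuronal miRNAs were 1142, 1457 and 2273 CPM in the controls and 1364, 1259, 1825 and 1953 CPM in SE. miR-124-3p, the most neuron-specific of them, was at 0 in 6 of the 7 libraries.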

How the data were processed

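The authors immunoprecipitated Ago2 from pooled EDTA plasma, made small RNA libraries, trimmed and size-selected reads and aligned them with BLASTn to miRBase in Chimera, with up to 2 mismatched nucleotides. They deposited raw counts per mature miRNA for 7 libraries, with no normalisation and no genome build. The submitters' processing notes name edgeR and limma. Library totals ran from 2043220 to 5405357 counts, and no per-sample column was left unused.

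From these counts, TMM factors over all 7 libraries were computed in edgeR 4.0.16 (R 4.3.3, limma 3.58.1), between 0.754 and 1.22. Pairs of libraries were compared with edgeR's exact test and a prior count of 0.125, at a BCV of 0.1 as in the study's methods, for each miRNA at 50 CPM or above in 1 or both libraries. For 3 acute SE against 3 control libraries, p-values came from the quasi-likelihood test in edgeR and were adjusted by Benjamini-Hochberg over those with 50 CPM in at least 3 of the 6. Differences between time-points were tested with edgeR's likelihood ratio test at the same BCV. The low-count value was the mode of a kernel density of ln counts between 6 and 300 (bandwidth 0.15). Shares have Wilson intervals and counts of 0 a limit of 3 counts, from Python 3.11.15, scipy 1.17.1, numpy 2.4.6 and pandas 2.3.3, with figures from matplotlib 3.10.9. Sequences are from RefSeq (GRCm38.p6) and gene overlaps from GENCODE M21. Scripts were tested on simulated data.

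The miRNAs named are the 9, their other arms and paralogs, the 3 most like each over the libraries, the largest calls of the wider list each way, and the leading marker of each source. The members and lists were chosen with earlier results of these data known. Alternatives were another BCV (0.4), library size alone, DESeq2 1.42.0, leaving out miR-486b-5p, all 3 controls as the reference, counts divided by the low-count value, a prior count of 2, other filters, time-point as a block, adding SE at 2 weeks and leaving out each library. The sources used here do not say whether a mouse entered more than 1 pool.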

Additional observations from a re-analysis of the deposited data

Results flagged for a closer look

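The change of SE against control differed between time-points for 6 of the 8 miRNAs tested, by edgeR's likelihood ratio test of the difference itself at a BCV of 0.1, with p-values adjusted over 197 miRNAs. Of all 197, 56.3% passed between 4 h and 8 h, 55.8% between 4 h and 24 h and 46.2% between 8 h and 24 h, so passing was common. Each value rests on 4 single libraries, and the controls differ among themselves as given above. On the log2 scale, the change at 8 h minus that at 4 h was -0.74 for miR-142a-5p, -0.94 for miR-142a-3p, -1.10 for miR-146b-5p and 2.59 for miR-342-3p. The change at 24 h minus that at 4 h was -0.77 for miR-142a-5p, -1.71 for miR-142a-3p, -1.15 for miR-146a-5p, -1.84 for miR-146b-5p, -0.74 for miR-150-5p and 1.78 for miR-342-3p. At 24 h miR-342-3p, with 87 counts in the control and 88 in SE, was below the 50 CPM of the exact test. The test of differences needed 50 CPM in any of the acute libraries. The change at 24 h minus that at 8 h was -0.77 for miR-142a-3p, -1.23 for miR-146a-5p, -0.74 for miR-146b-5p and -0.99 for miR-150-5p. For miR-342-3p between 4 h and 8 h and for miR-142a-3p between 4 h and 24 h, the 2 changes were called in opposite directions. miR-21a-5p and miR-223-3p did not pass between any 2 times.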

How the results depend on the processing

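With the BCV at 0.4, no call on the 9 miRNAs was made: 0 higher and 0 lower at 4 h and 8 h, 0 lower at 24 h and 0 higher at 2 weeks. Calls over all tested miRNAs were also fewer, at 7.88% higher and 16.4% lower at 4 h and 12.8% and 2.44% at 8 h. At 24 h 9.72% were lower, and at 2 weeks 2.56% were higher. Scaling by library size alone gave 1 call higher at 4 h, beside 28.5% of all tested, and 6 lower at 24 h, beside 52.1%. DESeq2's size factors gave 1 higher at 4 h, beside 27.9%. Counts divided by the low-count value gave 1 higher and 0 lower at 4 h, 0 and 0 at 8 h, 1 lower at 24 h (miR-146b-5p) and 0 higher at 2 weeks. Of all tested with these counts, 11.5% were higher and 4.69% lower at 4 h, and 10.1% and 5.36% at 8 h. At 24 h 7.97% were lower, and at 2 weeks 7.19% were higher. With 50 CPM in both libraries, 0 were higher at 2 weeks, beside 10.1% of all tested. With all 3 controls as the reference, 1 was higher (miR-146a-5p) and 0 lower at 4 h, and 2 were higher and 1 lower at 2 weeks. Over all tested against them, 31.8% were higher and 18.2% lower at 4 h, and 16.9% and 21.4% at 2 weeks. At 24 h the count stayed at 3 lower, beside 24.1% of all tested. There miR-142a-3p (log2 -0.25) dropped out and miR-342-3p (log2 -1.32), not tested against the 24 h control alone, came in. A prior count of 2 and no filter changed none of the counts of calls on the 9 miRNAs. The spread between pools of a condition could not be measured with 1 library each.

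Directions that turned, on the log2 scale, were as follows. Against all 3 controls at 4 h, miR-21a-5p was at -0.015, miR-142a-3p at -0.45, miR-150-5p at -0.016, miR-223-3p at -0.045 and miR-342-3p at 0.035. At 8 h, miR-21a-5p was at -0.16, miR-150-5p at -0.19 and miR-223-3p at -0.0077. At 24 h, miR-21a-5p was at 0.34, miR-142a-5p at 0.47 and miR-150-5p at 0.19, and at 2 weeks miR-21a-5p was at 0.36, miR-142a-5p at 0.51, miR-142a-3p at 0.40 and miR-342-3p at -0.64. By library size alone, miR-21a-5p was at -0.075 at 8 h, miR-223-3p at -0.57 and the untested miR-342-3p at -0.11 at 24 h, and miR-142a-5p at 0.026 at 2 weeks. By DESeq2's size factors, miR-21a-5p was at -0.076 at 8 h. Without miR-486b-5p, miR-21a-5p was at -0.073 at 8 h and 0.027 at 2 weeks, and miR-142a-5p at 0.11 at 2 weeks. With counts divided by the low-count value, miR-21a-5p was at -0.049 at 8 h and 0.18 at 2 weeks, miR-142a-5p at 0.26 and miR-146a-5p at 0.033 at 2 weeks. Of these values, only miR-142a-3p at 4 h and miR-342-3p at 4 h and 2 weeks had been called. The 4 h control was the lowest or highest library for both.

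For 3 SE against 3 control libraries, no filter gave 3 miRNAs past an adjusted p of 0.05, adding SE at 2 weeks 1, and DESeq2 4, none of them among the 9. By library size alone, miR-142a-5p was at -0.21, miR-146a-5p at -0.040, miR-21a-5p at -0.26 and miR-223-3p at -0.14, and with SE at 2 weeks miR-150-5p was at 0.31. With time-point as a replicate block, 0 miRNAs passed (20 at an unadjusted p under 0.05), miR-150-5p was at 0.096 and miR-342-3p at 0.18. Deviations of same-time libraries correlated at 0.168, 0.0777 and 0.335. Libraries of different times were not set beside these values, so they cannot decide whether the times pair the pools. Leaving out 1 library at a time, values ran from -0.73 to 0.19 for miR-142a-3p, -0.097 to 0.47 for miR-142a-5p, -0.063 to 0.51 for miR-146a-5p, -0.99 to 0.059 for miR-146b-5p, -0.21 to 0.47 for miR-150-5p, -0.15 to 0.33 for miR-21a-5p, -0.044 to 0.45 for miR-223-3p and -0.66 to 1.10 for miR-342-3p, and 0 miRNAs passed. The cause of these turns was not tested.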
